A study of Mus musculus with 4 samples.

Results

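The genes described here are 42 genes of DNA replication and mitosis, chosen by name with earlier results of these data known. They were found by their symbols among the 32285 genes of the deposited tables. They fall into 9 genes of the DNA synthesis (S) phase, 28 mitotic genes and 5 genes of replication repair and chromatin. Nuclei of the lateral septum (LS), a forebrain region beside the lateral ventricles, were profiled by single-nucleus RNA sequencing (snRNA-seq), in which unique molecular identifiers (UMIs) count the RNA molecules of each gene in each nucleus. The 4 libraries each pooled 3 male mice aged 6 to 8 weeks, namely C57J 1 and C57J 2 from C57BL/6JNifdc mice, nude from BALB/c nude mice, which lack T cells because Foxn1 is disrupted, and BALB/c from BALB/c mice, which have T cells but an immunity skewed towards T helper 2 responses. Nude and BALB/c thus shared a strain background that the C57J mice lacked, and each was represented by 1 library, so that neither had a replicate. The labels place C57J 1 in batch 1 and the others in batch 2, so that batch 1 held C57J alone. Since mice were pooled before sequencing, p-values measure the spread between pools. Where nude and BALB/c were grouped against C57J, that spread also held the difference between nude and BALB/c. It held the difference between the batches of C57J 1 and C57J 2 as well.

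A dividing cell copies its DNA once and then separates the copies. In S phase the Mcm2 to Mcm7 proteins form the helicase that unwinds DNA, ribonucleotide reductase (Rrm1 and Rrm2) supplies nucleotides, and Pole is the catalytic subunit of the polymerase of the leading strand. In mitosis Cdk1 with its cyclins drives entry, condensins compact the chromosomes, kinetochore proteins attach them to the spindle, and the spindle checkpoint, with Bub1 and Bub1b, delays separation until all are attached. In the adult forebrain, division is known from the neural progenitors of the ventricular wall, whose daughters become neuroblasts, and from oligodendrocyte precursor cells (OPCs), whereas neurons and mature oligodendrocytes (OLs) do not divide. Neurons and mature OLs therefore gave the background against which the other classes were read.

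The promoters of the members are shown first, because S-phase and mitotic genes are known to be switched on at different times through different DNA elements. RefSeq promoter windows on GRCm38.p6, of 250 bases before and 50 after the transcription start, were matched for 31 of the 42 members (34 windows, since some genes have several starts). Aurkb, Ccna2, Tpx2, Smc4, Mcm4, Pole, Fancd2, Atad2, Cdca2, Dlgap5 and Rmi2 were not matched. Capitals mark 4 motifs on either strand. The first is TTTGAA, and its variant is TTCGAA. The others are the E2F-like motif GCGGGAA and the NF-Y motif CCAAT, and a motif on the opposite strand appears as its reverse complement, such as ATTGG for the last. The 250 bases before the start are printed on the gene's own strand for 3 mitotic genes, Top2a (chr11:99024190-99024439, minus strand), Cdk1 (chr10:69352913-69353162, minus strand) and Bub1b (chr2:118597961-118598210, plus strand), and for 2 S-phase genes, Rrm1 (chr7:102441445-102441694, plus strand) and Mcm6 (chr1:128359706-128359955, minus strand), to which the results below return.
Top2a: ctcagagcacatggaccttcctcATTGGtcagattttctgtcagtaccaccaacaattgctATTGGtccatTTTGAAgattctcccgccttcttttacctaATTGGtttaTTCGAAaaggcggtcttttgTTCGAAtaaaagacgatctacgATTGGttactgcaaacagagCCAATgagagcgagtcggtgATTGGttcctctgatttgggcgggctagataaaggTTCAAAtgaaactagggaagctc
Cdk1: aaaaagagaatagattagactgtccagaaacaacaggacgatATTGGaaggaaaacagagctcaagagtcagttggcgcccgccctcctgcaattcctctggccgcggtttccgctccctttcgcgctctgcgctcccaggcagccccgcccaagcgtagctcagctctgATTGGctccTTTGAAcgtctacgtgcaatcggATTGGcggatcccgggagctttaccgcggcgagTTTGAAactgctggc
Bub1b: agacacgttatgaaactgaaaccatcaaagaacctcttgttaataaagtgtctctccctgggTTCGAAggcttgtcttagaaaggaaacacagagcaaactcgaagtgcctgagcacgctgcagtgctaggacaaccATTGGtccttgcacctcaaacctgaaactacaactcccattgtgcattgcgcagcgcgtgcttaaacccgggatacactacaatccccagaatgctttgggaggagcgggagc
Rrm1: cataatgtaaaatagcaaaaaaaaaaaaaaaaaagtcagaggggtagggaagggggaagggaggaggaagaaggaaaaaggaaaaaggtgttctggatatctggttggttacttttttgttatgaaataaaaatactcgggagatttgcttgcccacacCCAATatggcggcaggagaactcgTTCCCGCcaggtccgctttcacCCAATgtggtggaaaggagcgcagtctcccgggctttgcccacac
Mcm6: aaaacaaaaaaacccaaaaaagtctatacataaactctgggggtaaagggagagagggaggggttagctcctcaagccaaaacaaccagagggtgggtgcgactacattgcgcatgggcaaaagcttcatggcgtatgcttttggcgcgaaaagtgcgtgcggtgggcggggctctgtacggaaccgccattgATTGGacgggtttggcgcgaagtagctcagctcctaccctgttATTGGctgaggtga

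TTTGAA, the letters of the element known as the cell cycle genes homology region, was found in 19 of 24 windows of mitotic members (79.2%) and in 1 of 8 windows of S-phase members (12.5%). Of all 32851 promoter windows of the same length, 17.9% held it. The 24 mitotic windows came from 22 genes, since Ect2 and Prc1 each gave overlapping windows with the same TTTGAA sites, so windows are not independent. GCGGGAA, which resembles the known E2F site, was found in 4 of 8 S-phase windows, 2 of 24 mitotic windows (8.33%) and 4.60% of all windows. The 8 S-phase windows came from 7 genes, since Mcm7 gave separate windows that each held GCGGGAA, so these windows are not independent either. CCAAT, the letters of the NF-Y site, was found in all 8 S-phase windows and in 20 of 24 mitotic windows (83.3%), against 37.4% of all windows. TTCGAA, a variant of the first motif, was found in 3 of 24 mitotic windows and in 1 of 8 S-phase windows (12.5% of each), and in 1.56% of all windows. In the 68 windows of other cell cycle genes, the share with TTTGAA was 36.8% and that with GCGGGAA 25.0%. A match describes the letters of the window and is not evidence of binding. The Top2a window carried 6 CCAAT motifs, 2 TTTGAA and 2 TTCGAA, whereas that of Mcm6 carried 2 CCAAT motifs and none of the other 3. Only these letters were searched, so a window without GCGGGAA may still hold another form of the E2F site.

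After filtering, 49425 nuclei were retained (C57J 1 had 13075, C57J 2 had 12489, nude had 12948 and BALB/c had 10913), with median depths of 5328, 4028, 4482 and 8200 UMIs. BALB/c was therefore the deepest library. From 29 to 63 barcodes were shared between pairs of libraries, out of at least 12558 in each. Foxn1, which nude mice lack, had 2 to 5 UMIs in each library, so that these tables could not check the label. Nuclei were clustered without the 42 members and without 71 other cell cycle genes, and clusters were named from marker genes, so that each class below stands for nuclei resembling that class. Named classes included 31606 neurons, 7624 astrocytes, 5343 mature OLs, 207 newly forming OLs, 1959 OPCs and 1370 microglia, and 25 nuclei were left unnamed. One cluster of 1036 nuclei carried neuroblast and progenitor markers together (270, 250, 228 and 288 nuclei) and is called the neuroblast lineage. A gene's level in a class is its share of all UMIs counted there, scaled to the usual unit of CPM. Series of 4 values give the libraries C57J 1 and C57J 2 first, then nude, then BALB/c. CPM is not divided by gene length, so levels were compared between classes and libraries and not between genes. Since class and cluster were drawn from the same nuclei, classes were compared by description, without a test.

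All 42 members had higher levels in the neuroblast lineage than in neurons in each of the 4 libraries. All 42 were also higher there than in OPCs. The members were chosen with earlier results of these data known. Although left out of the clustering, the members Top2a and Rrm2 were among the genes that most set this cluster apart from others. The choice of genes and of cluster thus favoured this order, which is given as a description. The ratio of the lineage level to the neuron level, over the libraries together, had a median of 52.0 and ranged from 2.98 for Mcm4 to 435 for Hmmr. Its median was 76.4 over the mitotic members, 28.6 over the S-phase members and 16.2 over the repair and chromatin members. In OPCs, 34 of the 42 members were above neurons in every library, with a median ratio of 5.89. The heatmap of levels by class shows the members in the order of their ratio within each list.

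**Figure D1:**
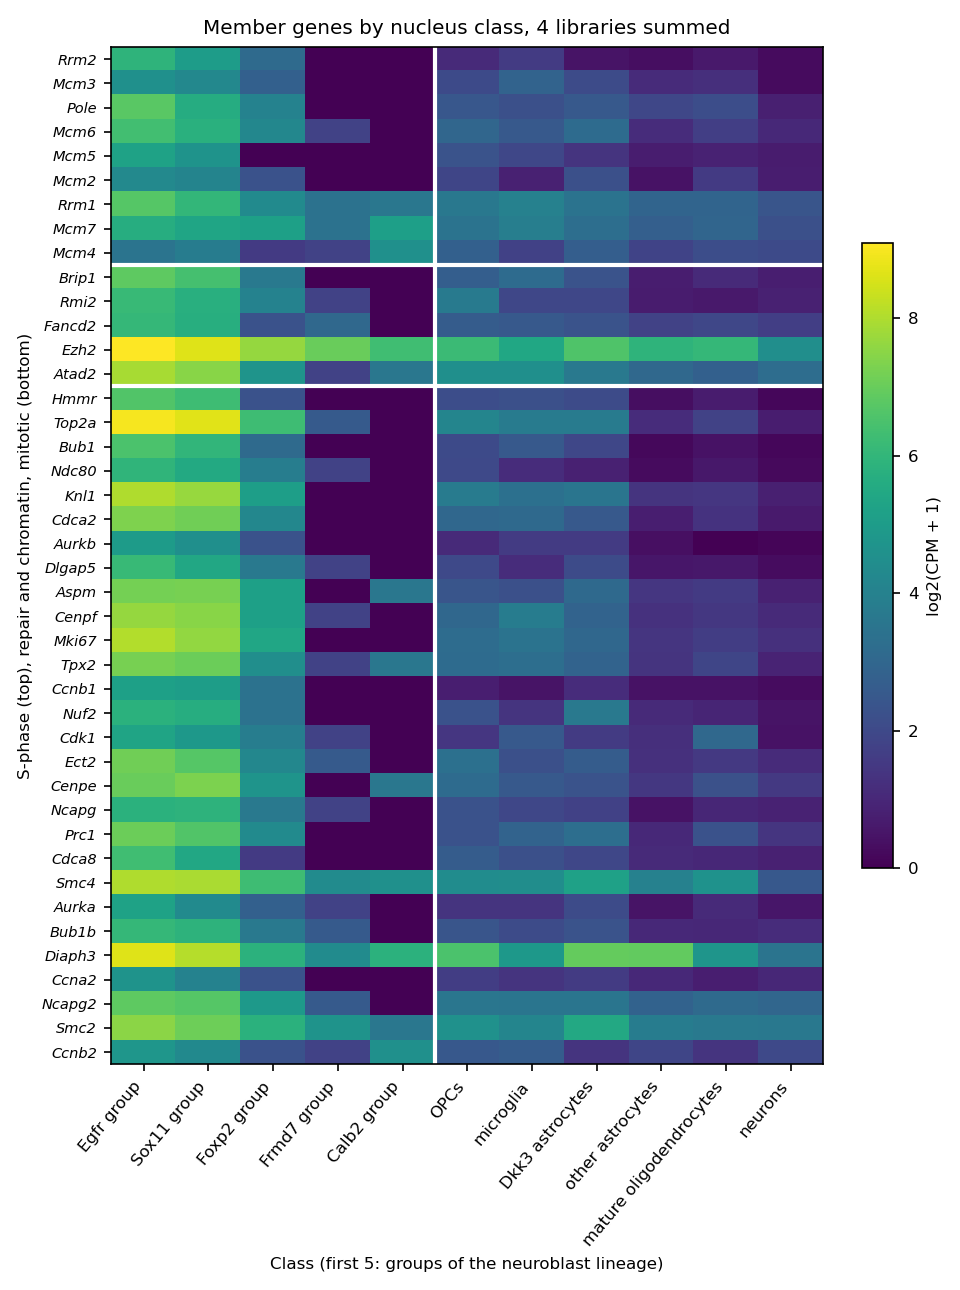
Level of each member (rows) in each class of nuclei (columns), as log2(CPM + 1) over the 4 libraries together. The first 5 columns are groups of the neuroblast lineage, and levels are highest in the Egfr and Sox11 groups and low for most members in the Frmd7 and Calb2 groups and in neurons. Horizontal white lines separate S-phase (top), repair and chromatin (middle) and mitotic members (bottom), and the vertical line ends the lineage groups.

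Among the mitotic members, Top2a, the topoisomerase that untangles sister chromosomes, reached 199, 348, 286 and 313 CPM in the neuroblast lineage. In OPCs Top2a was at 34.4, 22.1, 4.58 and 9.14 CPM, and in neurons between 0.520 and 0.777 CPM. A UMI of Top2a was found in 240 of the 1036 lineage nuclei (23.2%), 41 of the OPCs (2.09%) and 147 of the neurons (0.465%), although neurons were sequenced more deeply. Mki67, the proliferation marker Ki-67, was at 98.6, 127, 91.5 and 193 CPM in the lineage, 16.3, 7.35, 2.29 and 7.03 CPM in OPCs, and 1.13 to 1.79 CPM in neurons. The lineage levels of Mki67 thus stood apart from those of the other classes in every library. Cdk1, the kinase that drives mitotic entry, was at 13.7, 26.2, 18.3 and 27.3 CPM in the lineage, at 1.21 to 2.45 CPM in OPCs, and at 0.122, 0.0997, 0.711 and 0.430 CPM in neurons. Ccnb1, a cyclin partner of Cdk1, was at 24.3, 19.7, 13.7 and 26.4 CPM in the lineage and at most 0.359 CPM in neurons.

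Cenpf, a kinetochore protein, was at 114, 107, 75.5 and 152 CPM in the neuroblast lineage and 0.416 to 1.58 CPM in neurons. Aspm, a spindle pole protein that neural progenitors are known to need, was at 78.9, 85.3, 101 and 119 CPM in the lineage and 0.658 to 0.946 CPM in neurons. The largest ratios of lineage to neurons belonged to Hmmr, Top2a and Bub1. Hmmr, a spindle protein, was at 53.1, 32.8, 34.3 and 67.4 CPM in the lineage and no more than 0.159 CPM in neurons, a ratio of 435. Bub1, a checkpoint kinase, was at 31.9, 50.3, 41.2 and 53.7 CPM in the lineage and no more than 0.156 CPM in neurons, a ratio of 389.8. The ratio of Top2a lay between these at 430.3. For all 3 genes the lowest lineage library was far above the highest neuron library. The other mitotic members lay between 9.41 and 212 in this ratio, except Ccnb2 at 5.05. Among them were the kinetochore genes Ndc80 (212), Knl1 (192), Nuf2 (88.8) and Cenpe (53.6), the Aurora kinases Aurkb (165) and Aurka (36.8), Cdca2 (167), Tpx2 (101), which builds the spindle, Ect2 (62.9), which acts in cytokinesis, the condensin subunit Ncapg (45.7) and the cyclin Ccna2 (12.01).

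The smallest ratios belonged to Mcm4, Ccnb2 and Smc2, which had UMIs in every class. Ccnb2, also a cyclin partner of Cdk1, was at 13.7, 10.9, 16.01 and 17.1 CPM in the lineage and 2.52, 2.73, 2.84 and 3.59 CPM in neurons. Smc2, a condensin subunit, was at 83.5, 136, 80.0 and 119 CPM in the lineage and 10.4 to 13.2 CPM in neurons. Mcm4 was at 4.55, 10.9, 16.01 and 8.53 CPM in the lineage and 2.87 to 3.24 CPM in neurons, so that its lowest lineage library, with 3 positive nuclei, stood only slightly above its neurons. Mcm4 made up the lower end of the S-phase list, whose other helicase subunits were more restricted.

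Of those subunits, Mcm2 was at 9.11, 4.37, 11.4 and 15.4 CPM in the lineage and 0.558 to 0.694 CPM in neurons. Mcm3 was at 15.2, 15.3, 4.57 and 14.5 CPM against 0.121 to 0.335 CPM, and Mcm5 at 12.1, 13.1, 16.01 and 23.0 CPM against 0.516 to 0.746 CPM. Mcm6 was at 48.6, 48.1, 27.4 and 40.9 CPM in the lineage against 0.602 to 1.64 CPM in neurons, and Mcm7 at 47.0, 28.4, 52.6 and 26.4 CPM against 3.05 to 4.21 CPM. The reductase genes differed from each other, since Rrm2, the regulated small subunit, was at 24.3, 15.3, 20.6 and 34.1 CPM in the lineage and no more than 0.274 CPM in neurons (ratio 135), whereas Rrm1, the large subunit, was at 50.1, 37.2, 68.6 and 53.7 CPM and 4.04 to 4.57 CPM (ratio 12.1). Pole was at 42.5, 70.0, 32.0 and 39.2 CPM in the lineage and 0.602 to 0.954 CPM in neurons. For each of these 8 genes every lineage library exceeded every neuron library.

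Among the repair and chromatin members, Brip1, a helicase of crosslink repair, was at 60.7, 74.3, 48.0 and 58.9 CPM in the lineage and 0.638 to 0.780 CPM in neurons. Fancd2, which acts in the same pathway, was at 47.0, 28.4, 34.3 and 34.1 CPM against 1.78 to 2.62 CPM, and Rmi2, a partner of the Blm helicase, at 34.9, 50.3, 32.0 and 40.1 CPM against 0.602 to 0.877 CPM. Rmi2 was also found in OPCs, at 19.3, 17.2, 13.0 and 6.32 CPM. Atad2, a chromatin ATPase, was at 114, 139.9, 105 and 139.9 CPM in the lineage and 7.60 to 9.02 CPM in neurons. Ezh2, the methyltransferase that deposits the repressive H3K27 mark, was at 284, 282, 245 and 426 CPM in the lineage, but also at 57.2 to 82.1 CPM in OPCs, 59.0 to 67.9 CPM in mature OLs and 20.3 to 23.2 CPM in neurons. Ezh2 was positive in 441 lineage nuclei (42.6%), of which 54.4% carried at least 3 other members, against 96.7% of the nuclei positive for Top2a.

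Nuclei were then counted by how many members they carried, after each had been thinned to 1000 UMIs so that libraries and classes of unequal depth could be compared. At least 3 members were found in 67 of 268 lineage nuclei of C57J 1 (25.0%), 73 of 245 of C57J 2 (29.8%), 59 of 224 of nude (26.3%) and 76 of 288 of BALB/c (26.4%). The exact 95% intervals of these 4 shares overlapped, and C57J 2 was highest. Without thinning they were 38.1%, 33.2%, 32.5% and 42.01%, with the 2 deepest libraries highest. In neurons the thinned share was 0.0707%, 0.0640%, 0.0680% and 0.0316%, and in mature OLs 0.399%, 0.286%, 0% (0 of 1099 nuclei, which allows up to 0.273%) and 0.0661%, which gives the background of the measure. The median depths of neurons were 7286, 5868, 5964 and 12106 UMIs and those of mature OLs 2331, 1903, 1690.5 and 3810 UMIs. Microglia lay at 0.575% to 1.67%, and astrocytes other than a cluster with Dkk3 at 0 to 0.129%. The Dkk3 cluster had 4 of 263, 0 of 333, 2 of 250 and 4 of 229 nuclei, or 0.930% over all libraries. No newly forming OL of 206 carried 3 members in this draw, which allows a share of up to 1.46%. Over 100 thinning draws the mean was 0.34 nuclei (0 to 3). Without thinning, 21 of 207 newly forming OLs (10.1%) and 164 of 1959 OPCs (8.37%) carried at least 3 members. The exact (Clopper-Pearson) 95% intervals drawn in the plot of shares by class cover counting error only.

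**Figure D2:**
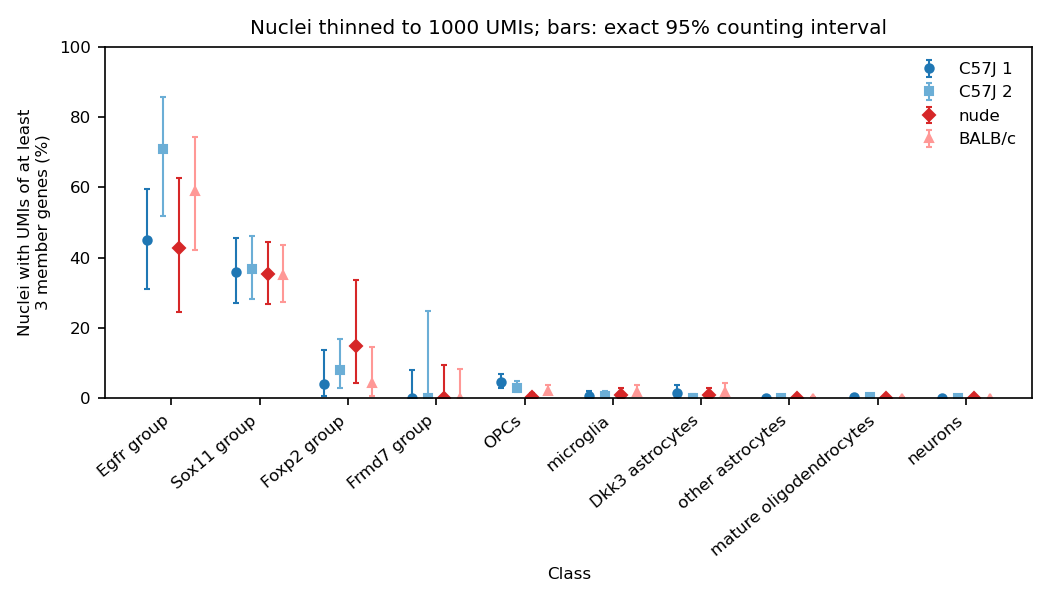
Percentage of nuclei with UMIs of at least 3 member genes (y axis) in each class or lineage group (x axis), after thinning to 1000 UMIs. Points are libraries and bars exact 95% counting intervals. The Egfr group lies between 42.9% and 71.0%, the Sox11 group between 35.2% and 36.9%, and neurons at or below 0.0707%.

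Within the neuroblast lineage, 5 groups were formed without the members and without genes that varied with them, cell type markers excepted. The Egfr group (152 nuclei) carried the progenitor gene Egfr (1812 CPM) and little of the neuroblast gene Dcx (87.9 CPM). The Sox11 group (511 nuclei) carried Sox11 (501 CPM) and Dcx (371 CPM), and Egfr at 109 CPM. However, the Egfr group also carried the neuroblast genes Sox11 (370 CPM) and Dlx1 (225 CPM). These levels were above those of the Foxp2 group (363 and 196 CPM). The Egfr and Sox11 groups thus shared neuroblast genes, and neither name stands for a pure cell type. At least 3 members were found in 45.1%, 71.0%, 42.9% and 59.0% of the Egfr group and in 36.0%, 36.9%, 35.2% and 35.2% of the Sox11 group. The Egfr group was thus above the Sox11 group in each library, although its shares rested on 28 to 51 nuclei and spread more widely. Over 100 thinning draws its mean share remained higher in each library, with nude closest (41.0% against 37.9%), but in C57J 1 and nude the draws of the Egfr group (18 to 28 of 51 nuclei and 8 to 14 of 28) overlapped in share those of the Sox11 group (38 to 47 of 114 and 43 to 50 of 122). In the Foxp2 group (198 nuclei) the share was 4.00%, 8.11%, 14.8% and 4.26%. The Frmd7 group had 0 of 136 nuclei, which allows a share of up to 2.21%, and the Calb2 group 1 of 39. Both groups carried Dcx, at 546 and 416 CPM, and were too small for their shares to be told from the background.

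The same order held for the summed levels. The 28 mitotic genes together reached 2732, 4895, 2477 and 4541 CPM in the Egfr group, 2681, 2913, 2719.6 and 3472 CPM in the Sox11 group, 461, 799.9, 1016 and 544 CPM in the Foxp2 group, and 144, 108, 63.2 and 91.4 CPM in the Frmd7 group. The 9 S-phase genes together reached 475, 549, 436 and 489.9 CPM in the Egfr group and 298, 289, 310.3 and 319 CPM in the Sox11 group. The S-phase sum was therefore higher in the Egfr group in all 4 libraries, whereas the mitotic sum was higher in 3 of 4, nude being lower. Over the libraries together, 38 of the 42 members were higher in the Egfr group than in the Sox11 group. Only 6 were higher in each library, namely Dlgap5, a spindle protein, Mki67, Pole, Cdca8, a subunit of the chromosomal passenger complex, Diaph3, a formin that assembles actin, and Atad2. None was lower in each library. The median ratio of the groups was 1.51 over the S-phase members and 1.30 over the mitotic members.

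**Figure D3:**
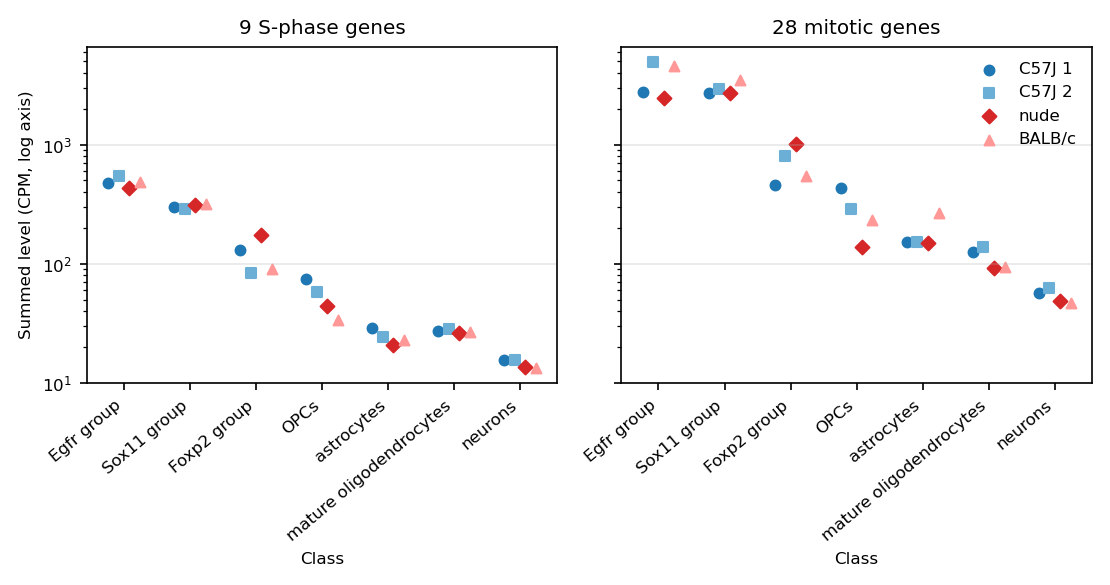
Summed level of the 9 S-phase genes (left) and the 28 mitotic genes (right) in CPM on a logarithmic axis, by class or lineage group (x axis) and library (points). Both sums fall from the Egfr and Sox11 groups to neurons, and in OPCs the C57J libraries lie above nude and BALB/c.

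S-phase genes were set against mitotic genes by the share of mitotic UMIs among both. This share depends on how many genes each list holds and how well each is captured, so only its differences between classes can be read. The share was 87.4%, 90.6%, 88.3% and 90.8% in the neuroblast lineage and 78.3%, 80.1%, 78.2% and 77.9% in neurons. In the Egfr group it was 85.2%, 89.9%, 85.0% and 90.3%, and in the Sox11 group 90.0%, 91.0%, 89.8% and 91.6%. In every library the Sox11 group was higher, by less than the width of the counting intervals of the Egfr group. In OPCs the share was 85.4%, 83.3%, 75.9% and 87.2%. Of the 398 OPCs with a Diaph3 UMI, 18.6% carried at least 3 other members, and without that gene the OPC shares became 80.3%, 78.4%, 64.4% and 81.1%.

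Both lists were then counted in single nuclei. In the lineage 120 nuclei carried at least 2 S-phase and 2 mitotic members, 217 carried at least 2 mitotic members without 2 S-phase members, and 27 the reverse, while 312 carried no member. The numbers in OPCs were 21, 135, 23 and 938. These counts were not thinned and depend on depth. Across all classes, 266 nuclei carried at least 10 of the 42 members (70, 62, 42 and 92). Of these, 191 (71.8%) belonged to the neuroblast lineage, 36 to OPCs, 18 to neurons, 8 to microglia, 6 to astrocytes and 6 to mature OLs. Predicted doublets had been removed before these counts. They were 14.6%, 1.59%, 8.70% and 11.5% of nuclei with at least 10 members, and 11.9%, 11.3%, 11.7% and 9.66% of all nuclei.

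Whether a UMI of a member came with others was then asked gene by gene. Of the lineage nuclei positive for a member, a median of 95.1% carried at least 3 other members (range 48.9% to 100%). The median was 63.3% in OPCs and 50% in microglia, but 11.4% in astrocytes, 8.33% in mature OLs and 7.66% in neurons. Most nuclei with a UMI of a member thus carried few others in astrocytes, mature OLs and neurons. For Mcm4 there were 754 positive neurons, of which 5.97% carried at least 3 other members, and 23 positive lineage nuclei, of which 87.0% did.

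The strain backgrounds were compared by adding up the UMIs of all nuclei of a class in each library. The sums of the C57J libraries were tested against those of nude and BALB/c with edgeR's quasi-likelihood test. Calls required a p below 0.05 after Benjamini-Hochberg adjustment over all genes tested, and an absolute log2 fold change above 0.5. Over all nuclei, 0 of the 42 members were called, while 1.46% of 20414 genes were. At an unadjusted p below 0.05 there were 4 members, Cdk1, Bub1b, Ncapg2 and Mcm6, and 12.6% of all genes. The median log2 fold change of the members was -0.01, as it was over all genes. This median joined libraries that differed, since it was 0.16 without nude and -0.30 without BALB/c. The summed level of the members over all nuclei was 159, 160, 128 and 176 CPM. Without the filter on low counts, edgeR called 4 members (background 2.82%), and DESeq2 also called 4 (background 3.4%). In both these were Cdk1, Bub1b, Ncapg2 and Mcm6. Fewer cells of a class and less RNA per cell cannot be told apart in such sums.

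In the neuroblast lineage, 0 of the 34 members that passed the filter on low counts were called, against 0.0701% of 8558 genes, and 1 member (Smc4) had an unadjusted p below 0.05 (background 6.61%). Without the filter, which let all 42 members be tested, 0 were called (background 0.236%) and 3, Ccna2, Smc4 and Prc1, had an unadjusted p below 0.05, all higher in nude and BALB/c (background 2.43%). DESeq2 called 0 of 42 (background 0.00525%). Both libraries of BALB/c background lay above both C57J libraries for 9 of 42 members (background 12.7%) and below them for 4 (background 16%). The median log2 fold change was 0.23 over the members. Its sign depended on the library left out. Over the members that passed the filter in each fit, it was 0.35 without nude and -0.21 without BALB/c. Smc4, a condensin subunit, was at 102, 179, 229 and 191 CPM, its log2 fold change being 0.62 ± 0.27 (standard error, SE) and its adjusted p 0.713 from edgeR. Without the nude library, the log2 fold change of Mki67 was 0.85, and without the BALB/c library it was -0.26. Progenitor markers were highest in the BALB/c library, their summed level being 393, 282, 414 and 629.6 CPM in the lineage. Neuroblast markers were highest there too, at 2619, 2326, 2310 and 3655 CPM, and neuron markers lowest, at 4585, 5081, 5403 and 3097 CPM. The part of these marker differences in the members' values was not tested.

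In OPCs most members had lower values in nude and BALB/c than in C57J, but no call was made in the main test. Only 18 of the 42 members passed the filter there, of which 0 were called (background 0.325% of 11078 genes) and 10 had an unadjusted p below 0.05 (background 7.91%). DESeq2 called 0 of 20 (background 0.264%). Since passing could depend on the C57J libraries, the list is described without the filter. Of all 42 members, 27 had both libraries of BALB/c background below both C57J libraries (background 20.7%), and Mcm4 alone had both above (background 11.7%). The median log2 fold change was -0.93 over the members and -0.01 over all genes. In this fit 18 members had an unadjusted p below 0.05, all of them lower (background 4.33%), and 4 passed the adjusted threshold, Top2a, Ncapg2, Knl1 and Bub1b (background 0.463% of genes called lower). The plot of fold changes shows that the members were spread around small values in the lineage and lay mostly to the left in OPCs.

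**Figure D4:**
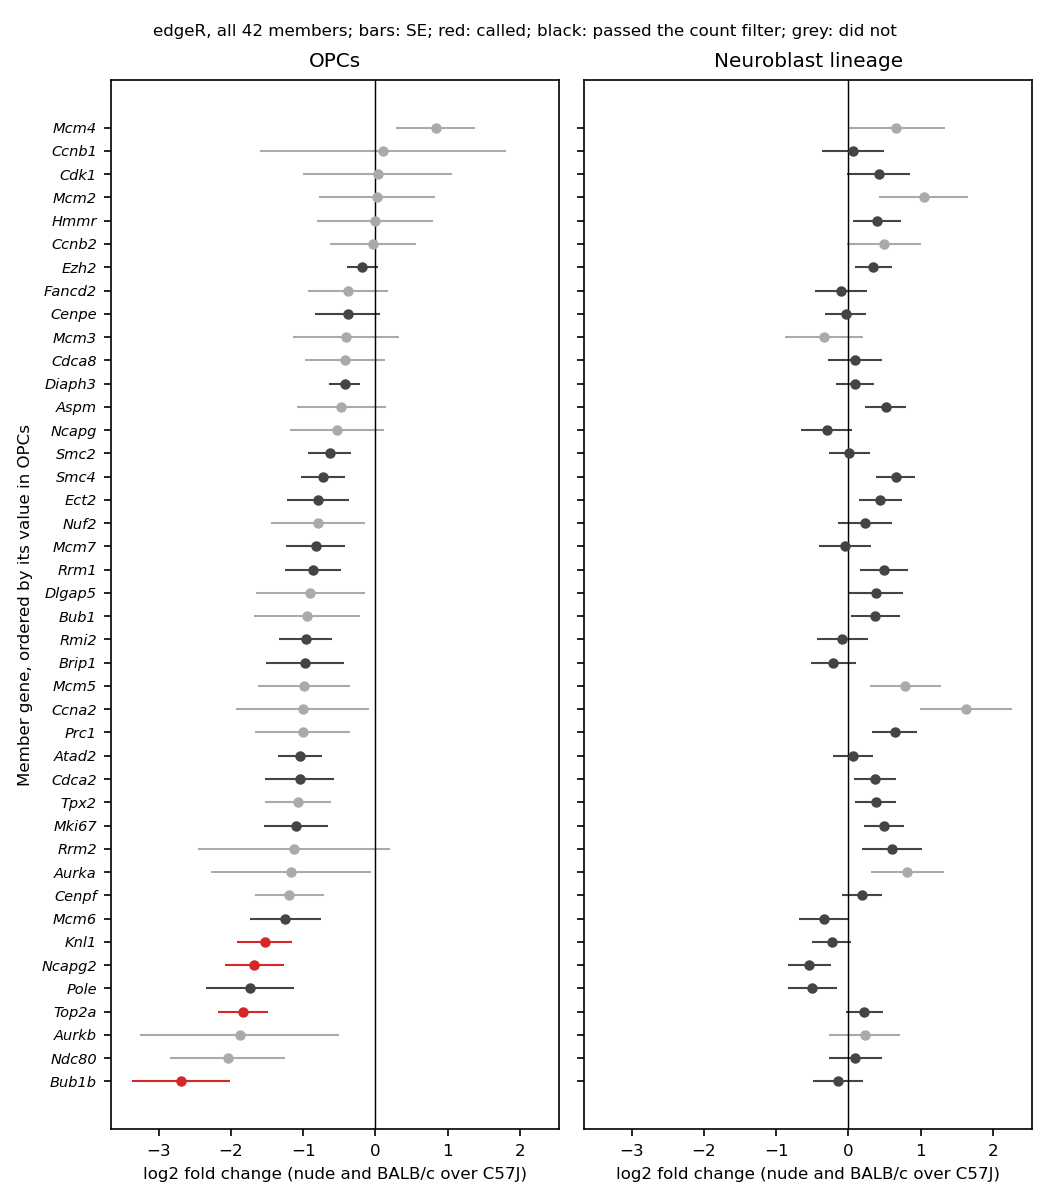
Log2 fold change of each member, nude and BALB/c over C57J, in OPCs (left) and the neuroblast lineage (right), from edgeR without the filter on low counts. Bars are standard errors, red points passed the adjusted threshold, black points passed the filter on low counts and grey points did not. In OPCs the values range from -2.69 for Bub1b to 0.84 for Mcm4.

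Top2a had 57 and 27 UMIs in the OPCs of C57J 1 and C57J 2, and 6 and 26 in nude and BALB/c. The corresponding levels of 34.4, 22.1, 4.58 and 9.14 CPM did not overlap between backgrounds, and positive OPCs numbered 18, 9, 4 and 10. The log2 fold change was -1.85 (SE 0.38), with an adjusted p of 0.0872 in the main edgeR test, 4.52e-05 without the filter and 0.377 in DESeq2. Knl1, which tethers the kinetochore, was at 25.4, 15.5, 3.05 and 8.78 CPM, and Ncapg2, a condensin subunit, at 21.1, 16.3, 9.15 and 3.51 CPM. Their log2 fold changes were -1.54 (SE 0.45) and -1.68 (SE 0.45), with adjusted p-values of 0.346 and 0.253 in the main edgeR test. Bub1b had 20, 5, 0 and 5 UMIs, and its absence in 501 OPCs of nude allows 0.599% of nuclei. Mki67 was at 16.3, 7.35, 2.29 and 7.03 CPM, with C57J 2 only slightly above BALB/c. The exception, Mcm4, was at 3.02, 5.72, 8.39 and 6.32 CPM.

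These OPC values rested on few nuclei and on single libraries. OPCs with at least 10 members numbered 15 and 11 in the C57J libraries, 1 in nude and 9 in BALB/c, so the members share their source and are not independent of each other. OPCs with at least 3 members, at 1000 UMIs per nucleus, made up 4.55% of C57J 1 (22 of 483, 95% interval 2.88 to 6.82%), 3.00% of C57J 2 (14 of 466, 1.65 to 4.99%), 0.401% of nude (2 of 499, 0.0486 to 1.44%) and 2.16% of BALB/c (11 of 509, 1.08 to 3.83%). The share of nude rested on 1 random thinning and was low among repeats. Over 100 thinning draws the mean shares were 4.49% (17 to 27 nuclei) and 2.63% (8 to 16) in the C57J libraries, 1.02% (2 to 9) in nude and 1.96% (7 to 14) in BALB/c, and 4 of the 100 draws of nude gave 2 nuclei. With predicted doublets kept, nude had 1.60% (8 of 501) and BALB/c 1.57% (8 of 510). After thinning to 2000 UMIs nude had 3.39% (13 of 384) and BALB/c 2.95% (15 of 508). The last step left out shallower nuclei, more of nude than of BALB/c, so its shares cover unlike nuclei. Over the draws and with doublets kept, the share of nude was not set apart from that of BALB/c. How far it lay below those of C57J changed with the draw. All 4 shares exceeded those of neurons, but the interval of nude also held shares found in neurons and mature OLs. With C57J 1 left out, which leaves batch 2 alone, the log2 fold change of Top2a was -1.46 (edgeR adjusted p = 0.418) and 0 members were called. Over the members that passed the filter, the median log2 fold change was -0.82 without C57J 1 and -1.14 without C57J 2. It was -0.68 without nude and -1.33 without BALB/c. These medians covered different numbers of members, 17 and 28 without C57J 1 and C57J 2, and 28 and 23 without nude and BALB/c. Since passing could depend on the C57J libraries, the medians cannot be compared with each other and are given as a description. Calls changed with the library left out.

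Markers of other cell types were counted beside the OPC values. OPC markers had a summed level of 10961 to 11686 CPM. Neuron markers summed to 2833, 3272, 3673 and 1840 CPM in OPCs, so nude was highest and BALB/c lowest. All 4 mural markers were lower in both libraries of BALB/c background, at summed levels of 7.24, 8.17, 3.81 and 3.86 CPM. In OPCs all 5 mature OL markers had both libraries of BALB/c background below both of C57J, with summed levels of 814, 891, 626 and 489 CPM, and 4 of 5 microglial markers were. Neuroblast markers summed to 259.6, 237, 257 and 172 CPM in OPCs, with 2 of 9 lower in both, and progenitor markers to 49.5, 56.4, 62.6 and 65.7 CPM. No marker of these lists was at 0 in OPCs of all libraries. The median depth of OPCs was 3279, 2536.5, 2474 and 5357 UMIs. The part of these differences in the OPC values was not tested. Of 71 other cell cycle genes, 44 had both libraries of BALB/c background below both C57J libraries in OPCs (background 20.7%). Only 1 had both above (background 11.7%). In the fit without the filter 3 of the 71 were called, Kif11, Kif14 and Kif15 (background 0.463% of genes called lower). All are kinesins of the spindle and all were lower. Kif11 was at 16.9, 6.54, 2.29 and 2.81 CPM, Kif14 at 9.05, 4.90, 0.763 and 1.05 CPM and Kif15 at 23.5, 13.9, 3.05 and 8.08 CPM. With the filter, 0 of the 30 that passed were called in OPCs. None of those tested was called in the other 5 comparisons (all nuclei, the lineage, neurons, mature OLs and astrocytes). Calls without the filter were not limited to OPCs. There edgeR called Ube2c in the lineage, higher in nude and BALB/c (background 0.236%), and E2f1, Kifc1 and Pbk in neurons (background 3.65%). DESeq2 called Kifc1, lower, in all nuclei (background 3.4%) and in neurons (background 3.61%).

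Several members differed between strain backgrounds in classes with few nuclei carrying 3 members, and comparisons in neurons, mature OLs and astrocytes were added for this reason after the data had been seen. In neurons, 1 of the 38 members that passed the filter was called (background 1.93% of 19651 genes), and this was Bub1b. Bub1b had 192 and 100 UMIs in the neurons of C57J 1 and C57J 2, but 10 in nude and 15 in BALB/c, levels of 2.92, 1.99, 0.173 and 0.184 CPM. It thus fell with a log2 fold change of -3.75 (SE 0.36, edgeR adjusted p = 0.00679). Leaving out nude or BALB/c ended the call, with edgeR adjusted p-values of 0.0660 and 0.0863 and log2 fold changes of -3.71 and -3.79. In the neuroblast lineage the same gene was at 39.5, 50.3, 34.3 and 40.1 CPM, where the backgrounds overlapped. Of the 297 neurons with a Bub1b UMI, 22 (7.41%) carried at least 3 other members, whereas 81 of 84 lineage nuclei (96.4%) did. Bub1b spans chr2:118598211-118641591 on the plus strand of GRCm38, and GENCODE vM21 places no other gene over it. The window before its start, printed above, holds 1 TTCGAA and 1 CCAAT, and its TTTGAA lies after the start.

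Cdk1 went the other way in mature OLs. It had 1 UMI in each C57J library, 21 in nude and 83 in BALB/c, or 0.315, 0.341, 10.0 and 13.4 CPM, a ratio of 38.3 (95% counting interval 10.3 to 320.3). The log2 fold change was 5.12 (SE 0.59), with an edgeR adjusted p of 0.0819 that missed the threshold. With 1 UMI in each C57J library, Cdk1 could pass the filter only through nude and BALB/c, where it was high. This p is thus given as a description. Over the alternatives the adjusted p of Cdk1 ranged from 9.39e-12 for edgeR without the filter on low counts to 0.806 without C57J 2, and was 0.00559 in DESeq2. In neurons Cdk1 had 8, 5, 41 and 35 UMIs (edgeR adjusted p = 0.0711), and passing the filter could depend on nude and BALB/c there too. In astrocytes it had 1, 1, 3 and 26 UMIs, a ratio of 11.5 (2.91 to 99.4). Of the 101 mature OLs with a Cdk1 UMI, 1 (0.990%) carried at least 3 other members, whereas 53 of 58 lineage nuclei (91.4%) did. Cdk1 lies on chr10:69335146-69352938, minus strand, and no other gene is annotated over it. In the lineage its levels overlapped between backgrounds.

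Diaph3, a long gene at chr14:86655367-87141235 (minus strand) over which Gm23438 and Gm49159 are annotated on the same strand, moved in opposite directions in 2 glial classes. In astrocytes it was at 82.8, 71.1, 97.0 and 179 CPM, with a log2 fold change of 0.93 (SE 0.31, edgeR adjusted p = 0.594), and BALB/c stood well above the others. In mature OLs it was at 44.1, 35.8, 19.6 and 13.2 CPM, with a log2 fold change of -1.27 (SE 0.26, edgeR adjusted p = 0.338). Neither passed the main threshold. Of the 1759 astrocytes with a Diaph3 UMI, 1.42% carried at least 3 other members. The summed mitotic level of astrocytes (153, 153, 150.05 and 268 CPM) included this gene, while Top2a was at 2.44, 1.503, 1.74 and 3.50 CPM there. In mature OLs 0 of the 14 members that passed the filter were called (background 0.00793% of 12614 genes), and 4 had an unadjusted p below 0.05 (background 5.26%). In astrocytes 0 of 22 were called (background 0.0636% of 14154 genes), and 3 had an unadjusted p below 0.05 (background 7.25%). Passing the filter in these 2 classes could depend on the libraries where a member was high, so these counts are given as a description. DESeq2 called Cdk1 in mature OLs (background 0.416%) and 0 members in astrocytes (background 0.573%). Without the filter edgeR called Cdk1, Diaph3 and Mcm6 in mature OLs (background 1.09%) and Cdk1 and Diaph3 in astrocytes (background 1.9%).

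Others of the neuron comparison lay near the threshold. Without the filter edgeR called 5 members in neurons (background 3.65%), Bub1b, Cdk1, Mcm6, Ncapg2 and Prc1. DESeq2 called 3 (background 3.61%), Bub1b, Ncapg2 and Prc1. Ncapg2 was at 8.85, 11.0, 5.34 and 4.48 CPM in neurons, with a log2 fold change of -0.996 (SE 0.18, edgeR adjusted p = 0.0557). Mcm6 was at 1.64, 1.46, 0.624 and 0.602 CPM, with -1.32 (SE 0.27, edgeR adjusted p = 0.0789), and Prc1, which bundles the midzone of the spindle, at 2.01, 3.05, 0.988 and 0.921 CPM, with -1.37 (SE 0.28, edgeR adjusted p = 0.0790). For all 3 genes both libraries of BALB/c background lay below both C57J libraries, as they did for 17 of all 42 members without the filter on low counts (background 23%). In the lineage Ncapg2 was at 62.2, 129, 54.9 and 64.0 CPM and Mcm6 at 48.6, 48.1, 27.4 and 40.9 CPM. The plot of 4 members by class shows Top2a with separate backgrounds in OPCs and mature OLs, Bub1b in OPCs, neurons, mature OLs and astrocytes, Cdk1 in neurons, mature OLs and astrocytes, and Diaph3 in mature OLs and astrocytes. In the lineage the backgrounds overlapped for all 4. Separate backgrounds were common over all genes in the other classes plotted. Without the filter, both libraries of BALB/c background lay above both C57J libraries for 11.2% (mature OLs) to 18.2% (neurons) of genes. They lay below for 18.3% (mature OLs) to 23% (neurons).

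**Figure D5:**
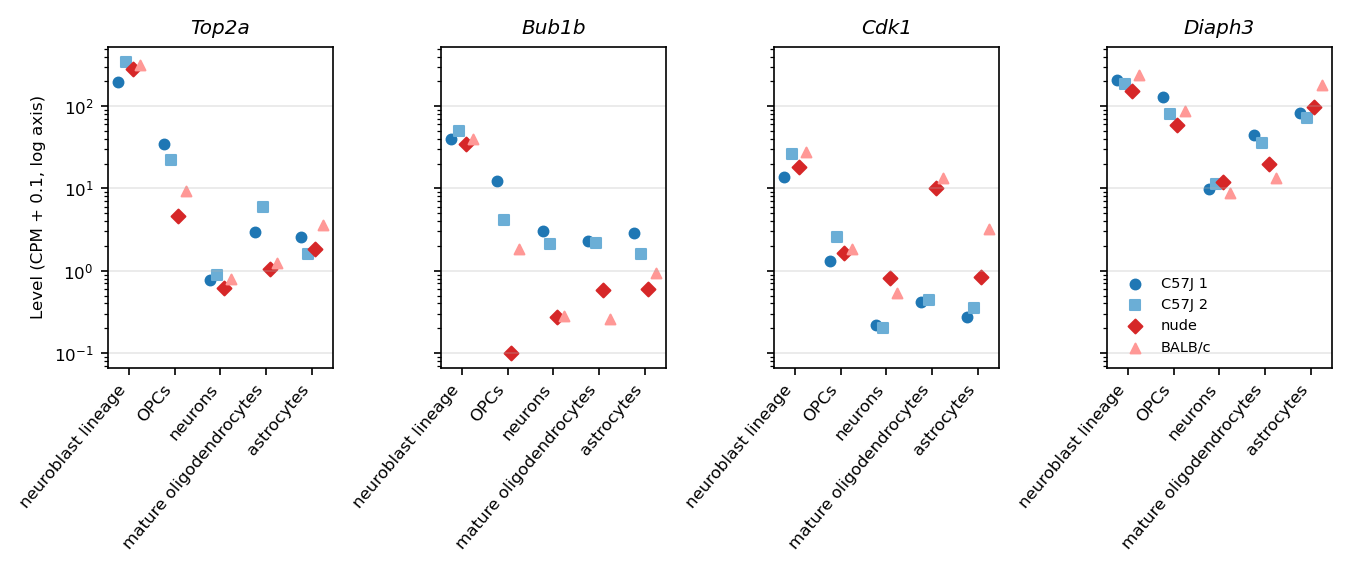
Level of Top2a, Bub1b, Cdk1 and Diaph3 as CPM + 0.1 on a logarithmic axis, by class (x axis) and library (points). Bub1b is lower in nude and BALB/c in every class but the neuroblast lineage, where the libraries lie between 34.3 and 50.3 CPM, and Cdk1 is higher in nude and BALB/c in neurons, mature oligodendrocytes and astrocytes.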

How the data were processed

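Nuclei of the LS were profiled in 4 libraries of 3 pooled mice each. The authors deposited raw UMI counts per gene and nucleus, made with Cell Ranger 7.0.1 on mm10 per the labels. Whether intronic reads were counted is not given in the sources used here. Nuclei with 200 to 6000 genes, 300 to 50000 UMIs and under 2% mitochondrial UMIs were kept. Predicted doublets (2 simulated per nucleus, 30 principal components, an expected rate of 0.8% per 1000 nuclei) numbered 1167 to 1761 per library and were removed. Nuclei were clustered by the Leiden algorithm (leidenalg 0.10.2, scikit-learn 1.9.0) on 3000 variable genes and 40 components with 6 neighbours per library at resolution 1, without the members and 71 other cell cycle genes. This step set apart most neurons by their markers. The other nuclei were clustered again, on 2000 variable genes and 30 components, to give the other classes and the remaining neurons. There a class was named from at least 3 markers, by their mean level relative to the cluster where each was highest. That score had to reach 0.4 and, except for neurons, exceed that of the next non-neuronal class by 0.15. The lineage was split at resolution 0.3, a setting chosen after the data had been seen, leaving out 836 genes. These were the members, the 71 other cell cycle genes and genes correlated with the members above 0.15, cell type markers excepted.

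For shares, nuclei were thinned at random to 1000 UMIs (1 draw, with 100 draws as an alternative) and 419 shallower nuclei were left out. UMIs were summed per library and class and tested with edgeR 4.0.16 in R 4.3.3 (quasi-likelihood, TMM, filterByExpr), with Benjamini-Hochberg adjustment over all genes tested, an adjusted p limit of 0.05 and an absolute log2 fold change limit of 0.5. The test was tried on simulated counts with the same dispersion for all genes and without a difference between batches or between nude and BALB/c. It therefore cannot show how the test behaves under that spread. Intervals (95%, exact) and zero limits (3 counts) cover counting error only. Alternatives were DESeq2 1.42.0, no filter, each library left out, doublets kept, cell cycle genes kept in the clustering, another seed, resolution 2, stricter limits and other lists. Values in every library were given for Mki67, Top2a, Cdk1, Ccnb1, Cenpf, Aspm, the S-phase and the repair and chromatin members, and any member called. They were also given for the 3 members with the largest and the 3 with the smallest ratio of lineage to neuron level. Of the other cell cycle genes called, those in OPCs were given with values and the rest by name. Top2a, Knl1, Ncapg2, Cdk1, Diaph3, Mcm6, Prc1, Smc4, Kif11, Kif14 and Kif15 were also described after their strain values had been seen. The members and lists were chosen with earlier results of these data known.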

Additional observations from a re-analysis of the deposited data

Results flagged for a closer look

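For 4 members, both libraries of BALB/c background lay above both C57J libraries in one class and below both in the other. The values are differences between the log2 ratios of mean levels (nude and BALB/c over C57J) in the 2 classes, among members with at least 100 UMIs in each. None of these differences was tested. Over all genes without the filter, both libraries lay above both C57J libraries for 11.2% (mature OLs) to 18.2% (neurons) in these classes. They lay below for 16% (neuroblast lineage) to 23% (neurons). The share of all genes with opposite patterns in 2 classes was not counted. Prc1 had a log2 ratio of 0.50 in the neuroblast lineage and -1.40 in neurons, a difference of 1.91. Smc4 had a log2 ratio of 0.58 in the neuroblast lineage and -0.86 in OPCs, a difference of 1.44. Atad2 had a log2 ratio of 0.21 in neurons, -0.60 in astrocytes and -1.14 in OPCs, differences of 0.81 and 1.34. Diaph3 had a log2 ratio of 0.84 in astrocytes and -1.28 in mature OLs, a difference of 2.13.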

How the results depend on the processing

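No paired analysis was possible because the groups compared share fewer than 2 replicate numbers. Without the filter on low counts, 4 members were called in all nuclei, 4 in OPCs, 5 in neurons, 3 in mature OLs and 2 in astrocytes, among 779, 187, 994, 237 and 441 genes, and 45 genes were called in the neuroblast lineage. DESeq2 called 4 members in all nuclei, 3 in neurons and 1 in mature OLs, and 740 genes in all nuclei, 1 in the lineage, 754 in neurons, 66 in mature OLs and 89 in astrocytes. The main edgeR counts were 298 genes in all nuclei, 36 in OPCs, 6 in the lineage, 379 in neurons, 1 in mature OLs and 9 in astrocytes. The cause of these differences was not tested.

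Leaving out 1 library gave 0 members in all nuclei throughout, 0 to 4 in OPCs, 0 to 1 in the lineage, 0 to 3 in neurons, 0 to 2 in mature OLs and 0 to 2 in astrocytes. The calls came without C57J 2 (4) or nude (2) in OPCs, without nude in the lineage (Mki67, with a log2 fold change of 0.85), and without nude in mature OLs and astrocytes (Cdk1 and Diaph3 in both). In neurons there were 3 without C57J 1, 2 without C57J 2 and 0 without nude or BALB/c. Genes called ranged from 50 to 167 in all nuclei, 31 to 318 in OPCs, 5 to 341 in the lineage, 72 to 972 in neurons, 0 to 329 in mature OLs and 0 to 772 in astrocytes, the highest being without C57J 2 in all nuclei and neurons and without nude in the others. Mki67 in the lineage changed sign without BALB/c, at -0.26 against 0.45.

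Shares with at least 2 members were 34.0% in C57J 1 and 32.3% in BALB/c for the lineage, and 8.28%, 6.22%, 3.41% and 4.91% for OPCs. With at least 4 members the lineage of BALB/c was at 21.2%. In nuclei as deposited the lineage was at 38.1% in C57J 1 and 42.01% in BALB/c, and OPCs were at 12.8%, 7.08%, 3.99% and 9.63%. Thinned to 2000 UMIs, the lineage was at 41.1% of 163 nuclei, 52.6% of 76, 46.8% of 77 and 33.7% of 282. OPCs were at 8.69% of 449, 5.57% of 377, 3.39% of 384 and 2.95% of 508, where BALB/c and not nude was lowest. Shallower nuclei were left out, fewer of BALB/c than of the other libraries, so these shares cover unlike nuclei. With predicted doublets kept, OPCs of nude were at 1.60% and those of BALB/c at 1.57%. The mean over 100 thinning draws was 1.02% in OPCs of nude, against 0.401% in the draw used. Each alternative set of nuclei was thinned anew. Without Diaph3, Ezh2, Smc2, Smc4 and Atad2, the lineage of C57J 1 was at 18.7%.

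The mitotic share without Top2a, Mki67 and Diaph3 was 83.2%, 87.4%, 84.3% and 87.5% in the lineage and 77.2%, 75.8%, 62.3% and 79.2% in OPCs. With Brip1, Fancd2, Atad2, Ezh2 and Rmi2 added to the S-phase list it was 68.9%, 74.1%, 72.4% and 72.6% in the lineage and 65.5%, 60.7%, 51.3% and 62.9% in OPCs. As a mean over nuclei it was 89.6% in the lineage of BALB/c. Without Diaph3 alone it was 80.3%, 78.4%, 64.4% and 81.1% in OPCs. The comparisons in neurons, mature OLs and astrocytes, the repeated thinning draws, and the lists without Diaph3 alone and without Diaph3, Ezh2, Smc2, Smc4 and Atad2, were added after the data had been seen. Depth limited genes with few UMIs, such as Bub1b in OPCs of nude, where 0 of 501 nuclei allows 0.599% of nuclei with a UMI.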
